A study of Mus musculus with 10 samples.

Results

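The 10 genes described here encode the sensors, the adaptor and the inflammatory caspases of the NAIP-NLRC4, NLRP3, AIM2 and noncanonical inflammasomes: Naip1, Naip2, Naip5, Naip6, Nlrc4, Nlrp3, Aim2, Pycard, Casp1 and Casp4. They were chosen by their role among the 24452 named genes of the count table, with earlier results of the same genotype contrast known, in which Naip2 stood among the strongest decreases. Their differences between the genotypes are therefore a description and are given without p-values. Of the 10 genes, 9 passed the filter on low counts and Naip1 did not.

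Inflammasomes are cytosolic complexes that assemble when a sensor meets a microbial product or a sign of cell damage. The sensor recruits caspase-1, often through the adaptor ASC, and caspase-1 then matures interleukin-1β and interleukin-18 and cuts gasdermin D, whose fragment opens pores in the plasma membrane. In skin they are best known from macrophages, from neutrophils and, for some sensors, from keratinocytes, and chronic irritation with a phorbol ester is a setting in which interleukin-1 signalling has long been studied.

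The tissue was back skin of C57BL/6 mice, 5 WT and 5 Zfp36ΔARE, 1 library for each mouse. Zfp36ΔARE mice lack an instability motif in the 3′-UTR of Zfp36 at its own locus, in every cell, so they make more tristetraprolin (TTP), the protein that binds AU-rich elements (AREs) and speeds the decay of mRNAs carrying them, and their controls were littermates. All mice, from 7 weeks of age, received 1 dose of the carcinogen DMBA (400 nmol) and then the tumor promoter TPA (10 nmol each time) for up to 20 weeks, so no untreated skin enters these comparisons. The sample was full-thickness, treated skin without a tumor, a mixture of epidermis, hair follicles, dermis, fat, muscle and leukocytes. In such a mixture, fewer cells of a type and less RNA per cell cannot be told apart.

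Total counts per library ran from 19595024 to 36419553. The targeted gene, Zfp36, had 2152 ± 277 normalized counts (SD, n = 5) in WT and 5427 ± 766 in Zfp36ΔARE skin, a log2 fold change of 1.33 (standard error 0.12), and the groups did not overlap. A normalized count is a count scaled by edgeR's TMM factors to the mean library size. Some libraries differed in ways that the genotype labels do not describe. Summed counts of Y-linked genes were 3349 to 4262 in 4 libraries, all Zfp36ΔARE, and at most 1 in each of the others, so only Zfp36ΔARE replicate 1 matched the WT libraries in this respect. The summed level of 8 hair shaft genes was 557 and 85.5 CPM (counts scaled to the same library total) in WT replicates 1 and 3, from 2661 to 3552 in the other WT libraries and from 5097 to 14595 in Zfp36ΔARE skin. Results are therefore also given without these libraries.

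The 4 Naip members lie in 1 cluster on chromosome 13, all on the minus strand. In GRCm38, the build of the deposited counts (mm10), GENCODE M21 places Naip2 at chr13:100144063-100202092 (16 exons), Naip5 at chr13:100211739-100246323 (14 exons), Naip6 at chr13:100281121-100317674 (15 exons) and Naip1 at chr13:100407764-100452869 (15 exons). Their coding sequences are close copies, and this bears on how well fragments can be assigned to each of them. Naip5 and Naip6 were 97.0% identical over 4209 aligned coding bases, whereas Naip2 was 89.5% to 90.3% identical to the other 3. The first 60 coding bases show where Naip2 departs. They are identical in Naip1, Naip5 and Naip6, and Naip2 differs from them at the 21 positions written in capitals. The Naip2 stretch is in exon 3 (chr13:100189339-100189398, minus strand) and the Naip5 stretch in exon 1 (chr13:100246140-100246199, minus strand).
Naip2: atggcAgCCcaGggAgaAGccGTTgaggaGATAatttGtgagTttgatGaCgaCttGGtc
Naip5: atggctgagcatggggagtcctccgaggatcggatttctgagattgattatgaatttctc

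A second stretch of 60 coding bases, in exon 11 of Naip2 (chr13:100161916-100161975, minus strand) and exon 9 of Naip5 (chr13:100223248-100223307), was identical in all 4 genes. A fragment that falls here alone has no unique origin.
Naip2 and paralogs: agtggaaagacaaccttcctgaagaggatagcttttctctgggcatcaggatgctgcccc

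In the longest protein-coding transcript of each gene with an annotated stop codon, 19.4% of the 50-base stretches of Naip2 also occurred in a transcript of another gene, against 36.9% for Naip5, 32.5% for Naip1 and 21.5% for Naip6. With 100-base stretches these shares fell to 4.55%, 16.2%, 13.6% and 6.26%. For Nlrp3, Casp1 and Casp4 no 50-base stretch was shared. Nlrc4 shared 1.13% and Aim2 0.932%. Pycard shared 11.8%, nearly all with Gm45205, an annotated transcript on the opposite strand. How the counting treated strand and fragments matching several genes is not given in the sources used here, so the values of single Naip genes and of Pycard carry that uncertainty, and the Naip genes are also given as a sum.

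**Figure D1:**
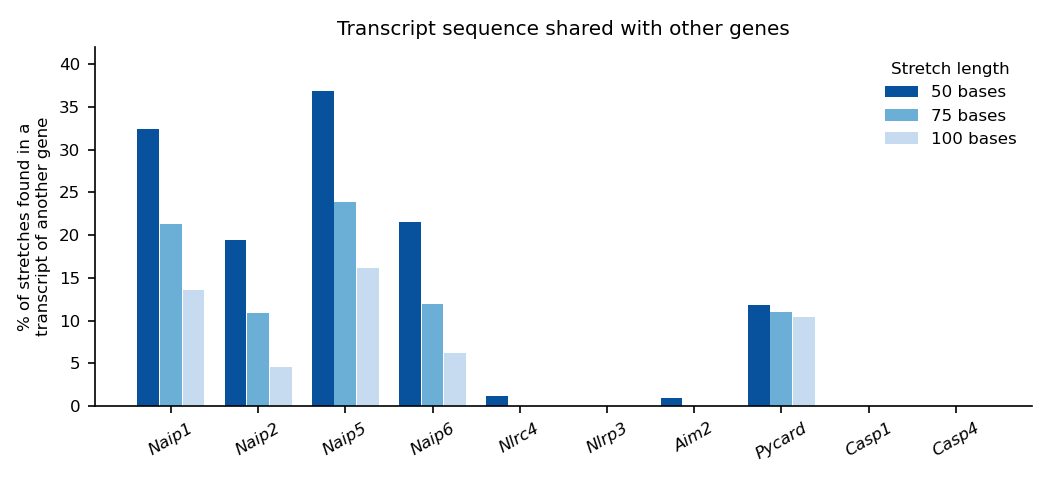
Percentage (y axis) of all stretches of 50, 75 or 100 bases in the longest protein-coding transcript of each gene that also occur in an annotated transcript of another gene. The Naip genes and Pycard stand above 4%, and Nlrp3, Casp1 and Casp4 are at 0.

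Naip2 was the member with the widest gap between the genotypes. NAIP2 is the sensor of the inner rod protein of bacterial secretion systems. Its normalized counts were 202, 174, 287, 142 and 144 in WT replicates 1 to 5 and 25.5, 12.7, 35.1, 13.4 and 44.8 in Zfp36ΔARE replicates 1 to 5. Every WT library lay above every Zfp36ΔARE library, and the lowest WT value, 142, stood far above the highest Zfp36ΔARE value, 44.8. The means were 190 ± 59.5 (SD, n = 5) and 26.3 ± 13.9, a log2 fold change of -2.86 (standard error 0.35), or 7.25-fold lower in Zfp36ΔARE skin.

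Naip5 and Naip6 encode the sensors of flagellin. Naip5 had 226, 176, 217, 119 and 120 normalized counts in the WT libraries and 92.9, 60.7, 62.6, 97.5 and 80.4 in the Zfp36ΔARE libraries. The groups did not overlap, and WT replicates 4 and 5 came closest to the Zfp36ΔARE libraries. The log2 fold change was -1.12 (standard error 0.23). Naip6 had 61.7, 70.3, 100.1, 45.6 and 52.6 normalized counts in WT and 29.97, 31.7, 19.8, 33.4 and 38.2 in Zfp36ΔARE skin, again without overlap, for a log2 fold change of -1.11 (standard error 0.25).

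Naip1, the sensor of the needle protein of secretion systems, had 73 counts in all 10 libraries together and was not tested. Of these, 28 were in Zfp36ΔARE replicate 1 and 18 in replicate 3, and no other library had more than 9. Naip7, which is no member, had 21 counts in all.

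The differences of the Naip genes between the genotypes were of unequal size. Naip2 took 43.6% ± 2.77 (SD, n = 5) of all Naip counts in WT skin, with a range of 40.7% to 47.4%. In Zfp36ΔARE skin its mean share was 17.5%, with a wider range of 9.26% to 26.8%. The share of Naip5 was 39.4% ± 4.13 in WT and 53.9% ± 8.74 in Zfp36ΔARE skin, and that of Naip6 was 15.2% ± 1.73 and 21.3% ± 5.71. The Zfp36ΔARE shares rest on fewer counts, 108 to 231 Naip counts per library against 314 to 533 in WT. In Zfp36ΔARE replicate 4, where Naip2 took the smallest share, the exact Clopper-Pearson 95% interval of that share was 4.53% to 16.4%, which covers counting error only.

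**Figure D2:**
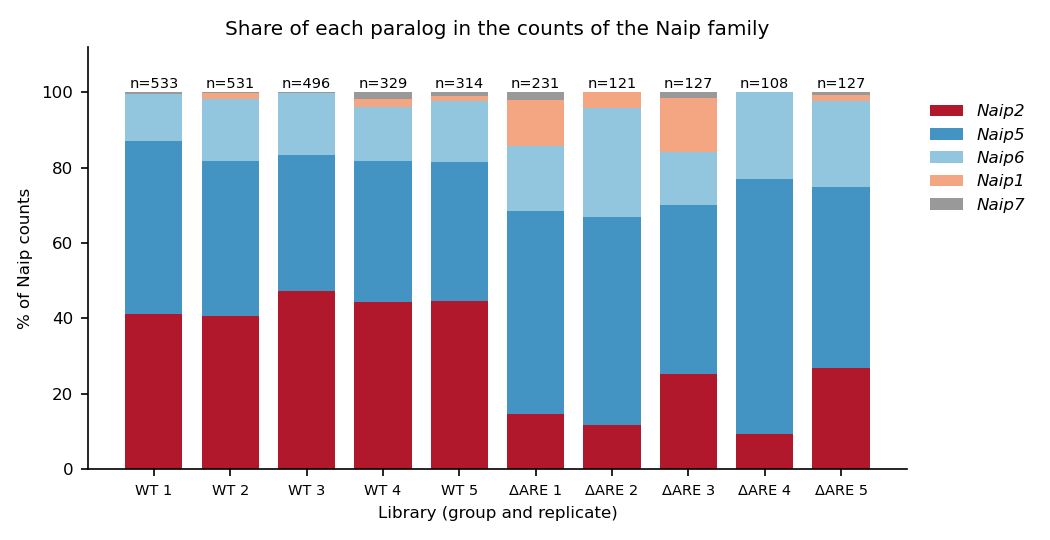
Share (%) of each paralog in the counts of the 5 Naip genes of the table, 1 bar per library (ΔARE, Zfp36ΔARE), with the number of Naip counts above each bar. Naip2 takes 40.7% to 47.4% in the WT libraries and 9.26% to 26.8% in the Zfp36ΔARE libraries.

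Per kilobase of exon, the ratio of Naip2 to Naip5 was 1.22 ± 0.19 (SD, n = 5) in WT and 0.379 ± 0.217 in Zfp36ΔARE skin, with no overlap. The ratio of Naip5 to Naip6, the pair with the closest sequences, was 3.35 ± 0.75 in WT and 3.35 ± 0.74 in Zfp36ΔARE skin. Summed over the 5 counted Naip genes, a value that does not depend on how the counted fragments were split among them, normalized counts were 434 ± 120 in WT (range 319 to 605) and 147 ± 25.3 in Zfp36ΔARE skin (range 110 to 173), a log2 fold change of -1.56 (standard error 0.20). The sum does not hold Naip3, whose annotated transcripts contain 23.2% of the 50-base stretches of Naip1 and 14.5% of those of Naip5. How fragments matching Naip3 were treated is not known.

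Nlrc4 encodes the protein that every NAIP sensor engages and that builds the inflammasome disc. It lies on chromosome 17 (chr17:74425438-74459142, minus strand). Its normalized counts were 60.8, 64.6, 67.1, 31.1 and 35.1 in WT and 17.2, 18.1, 8.78, 21.4 and 21.1 in Zfp36ΔARE skin. The groups did not overlap, with WT replicates 1 to 3 well above the other 2. The log2 fold change was -1.58 (standard error 0.30), or 2.99-fold lower.

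Nlrp3 encodes the sensor that responds to potassium efflux and membrane damage, and its transcription is a priming step of that inflammasome. It lies on chromosome 11 (chr11:59541568-59566956, plus strand). Normalized counts were 116, 77.5, 51.2, 66.0 and 50.6 in WT and 32.2, 9.05, 10.98, 45.4 and 25.05 in Zfp36ΔARE skin. The groups did not overlap, but Zfp36ΔARE replicate 4, the highest of its group, was within a few counts of WT replicates 3 and 5. The log2 fold change was -1.58 (standard error 0.42), the widest error among the 9 tested members.

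Aim2 encodes the sensor of cytosolic double-stranded DNA. Its normalized counts ran from 217 to 326 in WT and from 159 to 247 in Zfp36ΔARE skin, with means of 253 ± 43.8 and 199 ± 40.4. The groups overlapped, with Zfp36ΔARE replicates 4 and 5 among the WT values, and the log2 fold change was -0.35 (standard error 0.16).

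Pycard, which encodes the adaptor ASC, showed the smallest difference of the tested members. Its normalized counts were 2472 ± 194 in WT and 2252 ± 386 in Zfp36ΔARE skin, a log2 fold change of -0.13 (standard error 0.11), and the groups overlapped.

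The 2 inflammatory caspase genes are neighbours on chromosome 9, Casp1 at chr9:5298517-5307265 and Casp4 at chr9:5308828-5336783, both on the plus strand. Casp1 encodes the caspase of the canonical inflammasomes. It had 1412 ± 206 normalized counts in WT and 1047 ± 155 in Zfp36ΔARE skin, a log2 fold change of -0.43 (standard error 0.12). The groups overlapped through Zfp36ΔARE replicate 1, at 1302, which lay above WT replicates 3 and 5. Casp4 encodes caspase-11, the mouse caspase that binds lipopolysaccharide. Its normalized counts were 542, 501, 608, 412 and 371 in WT and 348, 266, 259, 363 and 368 in Zfp36ΔARE skin. The groups did not overlap, though WT replicate 5 and Zfp36ΔARE replicate 5 were nearly level, and the log2 fold change was -0.60 (standard error 0.16).

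**Figure D3:**
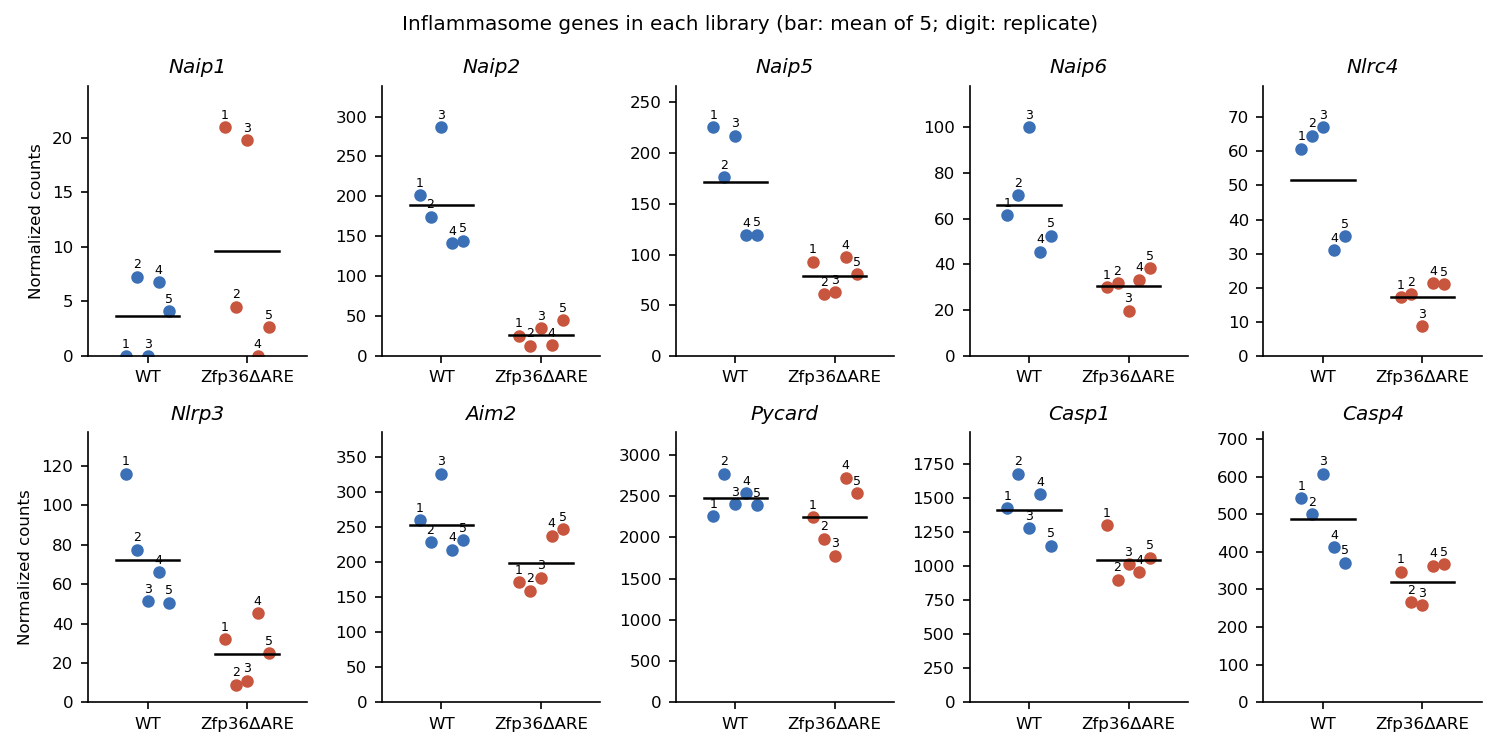
Normalized counts (y axis, linear, from 0) of each gene in every library, by genotype. Points are libraries with their replicate numbers and bars are means of 5, and in 6 of the 9 tested genes every WT point lies above every Zfp36ΔARE point, as in 11.9% of all tested genes.

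All 9 tested members had a negative log2 fold change, with a median of -1.11 against 0.0076 over the 15543 genes tested. Calls needed both an adjusted p below 0.05 in edgeR's quasi-likelihood test and more than a 2-fold difference. By both criteria 5 of the 9 were lower (Naip2, Naip5, Naip6, Nlrc4 and Nlrp3) and 0 were higher, where 6.64% of all tested genes were lower and 1.67% higher. By the adjusted p alone, 7 were lower, Casp1 and Casp4 being added, and 0 higher, where 19.1% and 15.3% of all tested genes passed. Casp1 no longer passed when Zfp36ΔARE replicate 2 or 3 was left out, and neither Casp1 nor Casp4 passed with the replicate number as a block or without WT replicates 1 and 3. Groups without overlap and lower in Zfp36ΔARE skin were found in 6 members and in 11.9% of all tested genes. Because the members were chosen on this contrast, nothing is read from these shares.

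Without WT replicates 1 and 3, 2 members (Naip2 and Nlrc4) met both criteria, and 4 met the adjusted p alone. The log2 fold change was then -2.56 (standard error 0.35) for Naip2, -0.82 (0.21) for Naip5, -0.88 (0.24) for Naip6, -1.34 (0.33) for Nlrc4 and -1.42 (0.45) for Nlrp3. The 3 remaining WT libraries still lay above every Zfp36ΔARE library in 6 members, Casp4 included. Without those 4 libraries with high Y-linked counts, 1 Zfp36ΔARE library was left. It lay below every WT library in 8 of the 9 members, Casp1 being the exception. The share of all tested genes ordered in this way is not given here, nor is it for the 6 members above. Nothing is therefore read from either count. The log2 fold changes were then -2.89 (standard error 0.52) for Naip2, -0.88 (0.44) for Naip5, -1.13 (0.48) for Naip6, -1.58 (0.58) for Nlrc4 and -1.17 (0.54) for Nlrp3. In that edgeR fit 0 of 16373 genes passed the adjusted p, the members included, while 2572 had an unadjusted p under 0.05. Sex-linked marks and the genotype cannot be told apart with these libraries.

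Levels can be set beside each other between genes only per length. Over all 10 libraries, in CPM per kilobase of exon, Pycard was highest at 41.5 ± 5.45 (SD, n = 10), followed by Casp1 at 30.5 ± 6.39, Casp4 at 10.5 ± 2.96 and Aim2 at 3.33 ± 0.72. The sensor and hub genes came next, Naip5 at 0.887 ± 0.430, Naip2 at 0.835 ± 0.736, Nlrp3 at 0.451 ± 0.303, Nlrc4 at 0.337 ± 0.212, Naip6 at 0.270 ± 0.133 and Naip1 at 0.0462 ± 0.0540. The adaptor and the caspases thus stood above every sensor gene.

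Of the 9 pairs of neighbours in this order, the first 4 steps held in all 10 libraries (exact two-sided sign-flip permutation test on log2(level + 0.1), p = 0.00195, the smallest that 10 libraries allow, adjusted p = 0.00439). Naip5, Naip2, Nlrp3, Nlrc4 and Naip6 formed a run in which no step passed over the 10 libraries together, with adjusted p from 0.111 to 0.139 in the same exact test. The order and the tested pairs were taken from the same 10 libraries, so these p-values describe how steady each step was. They are no independent test of the order. The permutation test also pools the genotypes, so a step whose direction differs between them can fail to pass without the levels being alike. The ratio of Naip2 to Naip5 was 1.22 ± 0.19 in WT and 0.379 ± 0.217 in Zfp36ΔARE skin. The last step, from Naip6 to Naip1, held in 9 of 10 libraries, with an adjusted p of 0.0105 in that permutation test. In Zfp36ΔARE replicate 3 Naip1 stood above Naip6, at 0.138 against 0.110. Naip1 had 0 counts in WT replicates 1 and 3 and in Zfp36ΔARE replicate 4, so its values there rest on the added 0.1. With the longest annotated transcript as the length, Casp1 moved above Pycard. In WT skin Naip2 came directly after Aim2, at 1.47, above Naip5 at 1.22. In Zfp36ΔARE skin it came lower, at 0.203, below Naip5 at 0.558 and Nlrp3 at 0.229.

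**Figure D4:**
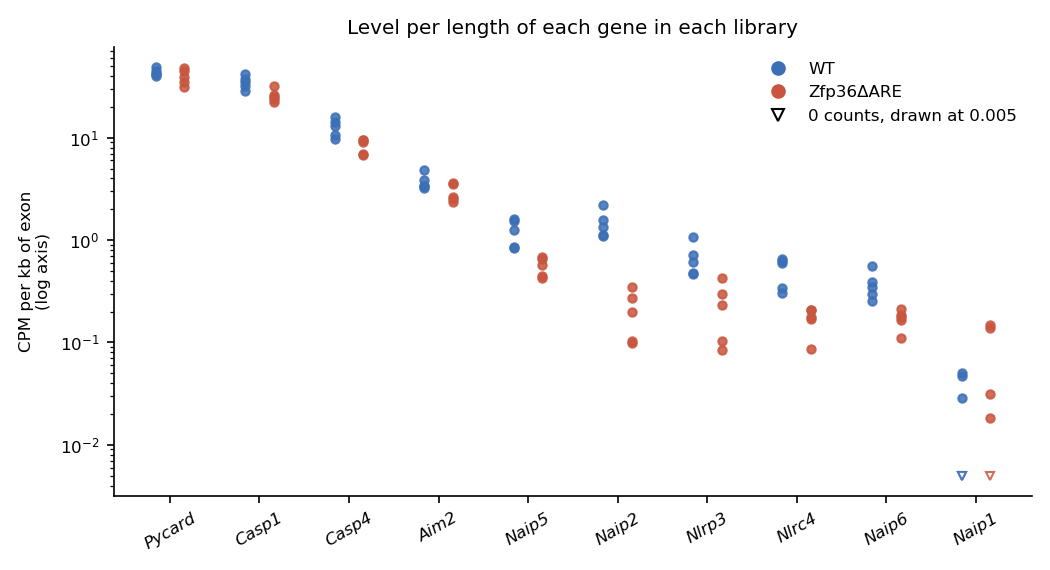
Level of each gene in each library in CPM per kilobase of exon (y axis, logarithmic), ordered by the mean over 10 libraries. Pycard, Casp1, Casp4 and Aim2 lie above 1 in all libraries, and the NAIP and NLR genes fall between 0 and about 2.

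Other genes of the pathway were taken from a list of 48 that was grouped by role, and 43 of them passed the filter. By both criteria in the edgeR fit, 6 were lower in Zfp36ΔARE skin and 0 higher (6.64% and 1.67% of all tested genes), and by the adjusted p alone 19 were lower and 1 higher (19.1% and 15.3%). Their median log2 fold change was -0.34, against 0.0076 over all tested genes. Without the 4 libraries with high Y-linked counts, 1 Zfp36ΔARE library was left, and the list lost its calls. The list was written with earlier results of these data known. The adjusted p-values given for its genes are therefore a description.

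Among 11 tested sensors of other inflammasomes and related receptors, 2 fell by both criteria. Mefv, which encodes the inflammasome sensor pyrin, fell from 87.3 ± 26.04 to 34.1 ± 12.4 normalized counts (log2 fold change -1.36, standard error 0.29, adjusted p = 0.00941). Ifi204, a DNA sensor of the same family as Aim2, fell from 932 ± 358 to 421 ± 99.6 (log2 fold change -1.15, standard error 0.27, adjusted p = 0.0125), although its groups overlapped. By the adjusted p alone 3 of the 11 were lower, the other being Nlrp1a, which was named after its values were seen (log2 fold change -0.78, adjusted p = 0.0368), and 8 did not pass.

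Among 13 tested activators and licensing factors, Irf4 fell by both criteria, from 633 ± 170 to 251 ± 21.1 normalized counts (log2 fold change -1.33, standard error 0.17, adjusted p = 0.00369, no overlap). IRF4 is a transcription factor of lymphocytes and myeloid cells. A further 5 genes of the group were lower by the adjusted p alone. Among them, named after their values were seen, were Irf8, the myeloid transcription factor known to drive Naip and Nlrc4 transcription (log2 fold change -0.77, adjusted p = 0.0105), and Tlr5, the cell surface receptor of flagellin (-0.88, adjusted p = 0.00531). Panx1, which encodes a membrane channel and was also named after its values were seen, was the 1 gene of the list that was higher (log2 fold change 0.31, adjusted p = 0.0318).

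Among 12 tested effectors and substrates, 7 were lower by the adjusted p and 2 of these also by fold change. Gsdmd, which encodes the pore-forming gasdermin D, fell from 576 ± 141 to 274 ± 39.5 normalized counts (log2 fold change -1.07, standard error 0.17, adjusted p = 0.00522), with no overlap. The log2 fold change of Gsdmd was -0.970 without WT replicate 1 and -0.997 without WT replicate 3, both just short of the fold criterion. Il1b, the main cytokine that caspase-1 matures, fell from 119 ± 26.2 to 53.5 ± 38.4 (log2 fold change -1.17, standard error 0.37, adjusted p = 0.0342). In Zfp36ΔARE replicate 4, however, Il1b stood at 122, within the WT range of 97.0 to 154, and its other 4 Zfp36ΔARE values were 30.7 to 42.2. Il1b lost its call when any 1 of WT replicates 1 and 3 and Zfp36ΔARE replicates 1, 2, 3 and 5 was left out, with adjusted p from 0.0634 to 0.0784. Il18, named after its values were seen, was lower by the adjusted p alone (log2 fold change -0.55, adjusted p = 0.0292).

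Among 7 tested inhibitors, 3 were lower by the adjusted p. Trim30a, which encodes a TRIM protein that restrains NLRP3, was the 1 that also passed the fold change, from 480 ± 139 to 196 ± 30.7 normalized counts (log2 fold change -1.29, standard error 0.20, adjusted p = 0.00505, no overlap). Without WT replicate 1, the genes that met both criteria numbered 3 (Mefv, Irf4 and Trim30a). Without WT replicates 1 and 3 they numbered 4, namely these 3 and Pydc3, named after its values were seen, which passed the filter in that fit.

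**Figure D5:**
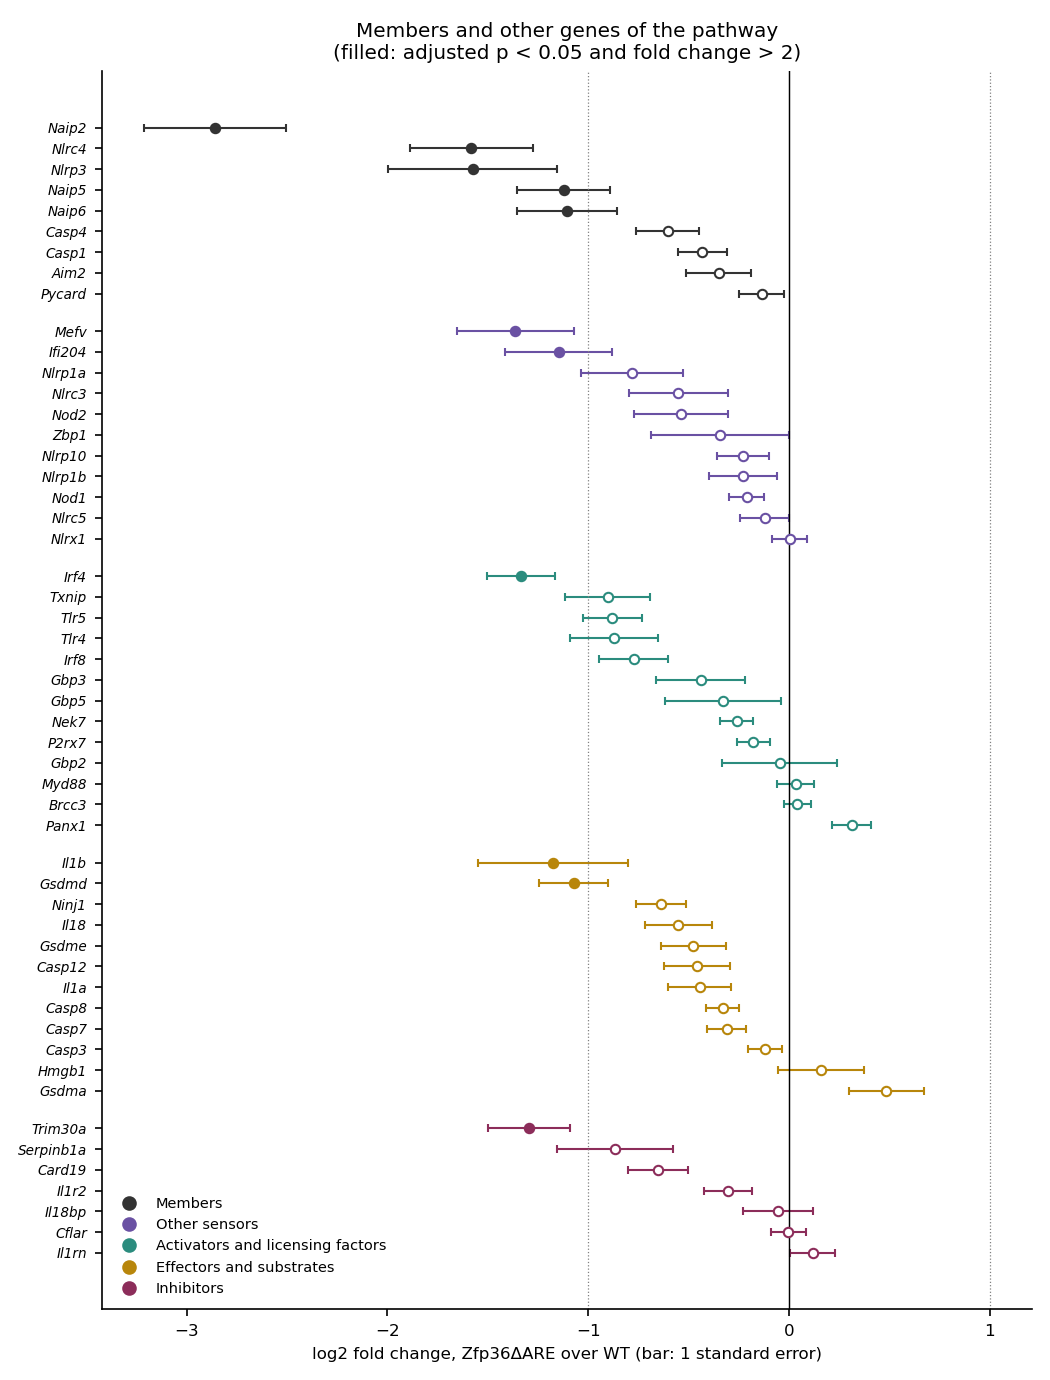
Log2 fold change of Zfp36ΔARE over WT (x axis) with 1 standard error for the 9 tested members and 43 tested genes of the pathway list, by role; filled points met both criteria. All members lie left of 0, and 36 of the 43 other genes do.

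Macrophage markers differed between the genotypes as the members did in direction. Of 14 macrophage markers, all had a negative log2 fold change, with a median of -1.36, and 12 were called by both criteria. Their summed level was 993 to 1939 CPM in WT and 427 to 667 CPM in Zfp36ΔARE skin. Lyz2, Mrc1, Csf1r and C1qb had log2 fold changes of -1.89, -1.40, -1.504 and -1.47. Once group means were removed, the Pearson correlation over the 10 libraries with the mean log2(CPM + 1) of the macrophage markers was 0.91 for Casp4, 0.89 for Naip5, 0.79 for Nlrc4, 0.71 for Aim2, 0.66 for Nlrp3, 0.65 for Naip6, 0.46 for Pycard, 0.36 for Naip2 and 0.30 for Casp1. These values share libraries and scaling factors and are a description. Between members, with group means removed, the highest correlation was that of Naip5 with Casp4 (0.93), and the value for Naip2 and Nlrp3 was -0.035. The part of macrophage transcripts in the differences of the members was not tested.

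Of 10 neutrophil markers, 5 could be tested and 1, Csf3r, was called (log2 fold change -1.39). The other 4 tested were not called: S100a8 (0.72), S100a9 (0.81), Cxcr2 (-0.24) and Mmp8 (-0.0022), and the median of the list was -0.0022. Ly6g, Mpo, Elane and Ngp had at most 50 counts in all libraries together, and they, Csf3r and Mmp8 are named after their values were seen. The summed level of the list was 50.03 to 196 CPM in WT and 43.7 to 713 CPM in Zfp36ΔARE skin, where replicate 4 held the 713. That library held 6290 normalized counts of S100a8 and 12004 of S100a9. The paper reports both genes in sorted epidermal cells of DMBA/TPA-treated skin, so this sum is not specific to neutrophils. The same replicate had the highest Nlrp3, Naip5, Nlrc4, Pycard and Il1b of its group, and the highest summed macrophage markers, 667 CPM. Its Naip2 (13.4 against a group mean of 26.3) and Casp1 (956 against 1047) were below the group means. Whether these values go together was not tested. Mast cell markers were lower in 5 of 6, skeletal muscle markers in 7 of 8 and adipocyte markers in 5 of 6 by both criteria, and 0 of 5 T cell, 0 of 5 basal and 0 of 4 suprabasal keratinocyte markers passed them. Over all tested genes 6.64% were lower and 1.67% higher by these criteria. The remaining mast cell marker, Kit, went the other way. It was higher by edgeR's adjusted p alone (log2 fold change 0.29, adjusted p = 0.00885), without overlap. Of 8 dendritic and Langerhans cell markers, all with a negative log2 fold change, 1 was lower by both criteria, and 1 of 2 neuron markers was higher. All 8 hair shaft markers had positive log2 fold changes, from 1.27 to 2.40 with a median of 2.29, and 1 of them met both criteria. The groups did not overlap in any of them. The share of all tested genes that were higher without overlap is not given here, so nothing is read from that. The median log2 fold change was -0.14 for the basal and -0.16 for the suprabasal keratinocyte markers. By edgeR's adjusted p alone, Itga6, named after its values were seen, was lower (log2 fold change -0.29, adjusted p = 0.0451) and Ivl was higher (0.58, adjusted p = 0.0197). The part of these cell types in the members' values was not tested either.

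The genes whose log2 CPM over all 10 libraries most resembled that of Naip2, among 13690 tested genes averaging 50 or more normalized counts, were Tpsg1 (Pearson r = 0.97), Themis2, Cd209c, Anks6 and Hnmt (r from 0.96 to 0.97). These correlations hold the difference between the genotypes. With group means removed, they were Erlec1 (0.93), Crls1, Ceacam1, Zfp952 and Zfp386, so the 2 lists had no gene in common. For Nlrp3 they were Cotl1 (0.96), Saa3, Numbl, Gnb2 and Epha3 over all libraries and Sf3b6 (0.93), Saa3, Rab4b, Sdhaf1 and Gnb2 with group means removed.

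TTP binds AREs, whose core is the pentamer ATTTA in the DNA letters of the gene, so the annotated 3′-UTRs of the members were searched for it. Nlrp3 held 5 pentamers in 696 bases, or 7.18 per kilobase, and Casp4 2 in 257 bases, or 7.78 per kilobase. Naip6 held 6 in 2431 bases, Naip1 and Pycard 3 each, Nlrc4 2 and Aim2 1, and Naip2, Naip5 and Casp1 held 0. Over 20607 genes with an annotated 3′-UTR of at least 50 bases, 65.8% held at least 1 pentamer and the rate was 1.93 per kilobase. The nonamer TTATTTATT, a longer form that overlaps the pentamer, occurred once in the members, in Casp4, and in 7.71% of all these genes. The stretches with 2 pentamers in Nlrp3 (chr11:59566826-59566855, plus strand, exon 10) and Casp4 (chr9:5336728-5336757, plus strand, exon 9) are shown with the pentamers in capitals. A match is a description of the sequence and not a binding site.
Nlrp3: agagATTTAtaaaacccatttttgtATTTA
Casp4: ATTTAccaaaagagaaatttgttttATTTA

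The promoters of the members, 250 bases before to 50 after each start in RefSeq on GRCm38.p6, were searched on both strands for 3 short motifs, since several of the genes were lower together. All 10 members matched, with 12 promoters. GAAANNGAA, an interferon regulatory factor-like motif, was present in 1 of the 12, that of Naip2, and in 8.56% of all 32851 promoters. GGGNNTTCC, a κB-like motif, was present in both promoters of Nlrp3 and in Casp4, whose 2 listed promoters overlap nearly in full and hold the same matches, and in 5.82% of all promoters. GAGGAAGT, a PU.1-like motif, was present in those of Aim2 and Pycard, and in 3.202% of all promoters. The promoters of Naip2 (chr13:100202073-100202372, minus strand) and Naip5 (chr13:100247287-100247586, minus strand) are shown because Naip2 differed far more between the genotypes than its neighbour Naip5, and that of Casp4 (chr9:5308599-5308898, plus strand) because it held 2 κB-like motifs. Capitals mark matches, which on the opposite strand read as the reverse complement. No match says only that these letters were not in this window.
Naip2: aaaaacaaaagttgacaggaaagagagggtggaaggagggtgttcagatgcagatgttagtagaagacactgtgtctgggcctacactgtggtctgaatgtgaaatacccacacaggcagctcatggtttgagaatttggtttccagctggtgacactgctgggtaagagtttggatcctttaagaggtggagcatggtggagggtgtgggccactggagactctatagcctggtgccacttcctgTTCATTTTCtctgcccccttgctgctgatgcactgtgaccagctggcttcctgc
Naip5: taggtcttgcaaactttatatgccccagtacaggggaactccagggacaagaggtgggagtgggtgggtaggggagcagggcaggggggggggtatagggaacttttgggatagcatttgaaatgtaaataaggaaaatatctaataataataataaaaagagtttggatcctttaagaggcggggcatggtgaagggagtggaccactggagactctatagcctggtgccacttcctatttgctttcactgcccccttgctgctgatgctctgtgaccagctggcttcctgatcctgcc
Casp4: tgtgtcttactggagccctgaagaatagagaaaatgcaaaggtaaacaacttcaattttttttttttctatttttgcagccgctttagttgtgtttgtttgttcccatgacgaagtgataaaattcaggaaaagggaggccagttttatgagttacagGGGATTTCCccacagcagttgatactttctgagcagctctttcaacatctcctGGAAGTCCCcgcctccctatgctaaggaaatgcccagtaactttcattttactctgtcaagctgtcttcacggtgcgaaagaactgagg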

How the data were processed

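Skin RNA from 5 WT and 5 Zfp36ΔARE mice was sequenced in paired ends. The authors removed low-quality reads, aligned the rest to mm10 with STAR 2.5.2b and counted fragments per gene with featureCounts (Subread 1.5.0-p1), and they deposited raw counts without normalization, with the exon length of each gene. The study tested them with DESeq2. Settings for strand and for fragments matching several genes are not given in the sources used here. The table had 24454 rows, of which 2 named no gene (7.38e-05% of counts) and were left out.

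In R 4.3.3, edgeR 4.0.16 applied TMM scaling, filterByExpr and the quasi-likelihood test with robust dispersions and genotype as the only term, with Benjamini-Hochberg adjustment over 15543 genes (median biological coefficient of variation 14.9%). A call needed an adjusted p below 0.05 and more than a 2-fold difference, as in the study. Replicates are separate mice. Levels are CPM, on effective library sizes, per kilobase of exon. Gsdme is listed in the table as Dfna5. Coding sequences were aligned with MAFFT 7.526 from GENCODE M21. The script was tested on simulated data. Alternatives were DESeq2 1.42.0, limma-voom (limma 3.58.1), other scalings and filters, a replicate block and left-out libraries. The members, lists and alternatives were chosen with earlier results of these data known. Besides the 10 members, the genes named are any other Naip gene, the called genes of the pathway list, the 5 genes most like Naip2 and Nlrp3, up to 4 markers per cell type and Zfp36, and genes named outside this rule are marked as named after their values were seen.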

Additional observations from a re-analysis of the deposited data

Results flagged for a closer look

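Il1b in Zfp36ΔARE replicate 4 lay far from the other 4 libraries of its group, at 122 normalized counts against 30.7 to 42.2. The gap made up 0.874 of the group's range, over the critical value of 0.71 for 5 samples. This was 1 of 38 groups examined, of which about 1.9 would be picked out by chance. The same library had the highest summed neutrophil markers, 713 CPM, and the highest summed macrophage markers of its group, 667 CPM. Whether the values go together was not tested.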

How the results depend on the processing

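The count of members called lower, 5, was also 5 with DESeq2, with limma-voom, with 2 other scalings, without a filter and with non-robust dispersions, and 4 with at least 10 counts in every library, which removed Nlrc4. Without WT replicates 1 and 3 it was 2, and without these and Zfp36ΔARE replicate 1, an alternative chosen after seeing the data, it was 1 (Naip2). Without the 4 libraries with high Y-linked counts, the members and the pathway list lost their calls. Only 1 Zfp36ΔARE library was left in that fit, so no other count is read from it. There the lone Zfp36ΔARE library is assumed to vary like the WT libraries. Leaving out 1 library at a time gave 4 to 5 members and 3 to 8 pathway genes, the lowest being 3 without WT replicate 1 against 6 with all libraries. Without WT replicates 1 and 3 and Zfp36ΔARE replicate 1 the pathway list had 3 calls (Pydc3, Trim30a and Irf4), and without a condition on fold change it had 20. Over 21 alternatives the log2 fold change of Naip2 ran from -3.12 to -2.55 and that of Nlrp3 from -1.89 to -1.17. No member tested with all libraries changed sign, nor did any of the 6 pathway genes called with all libraries. The signs of the other named pathway genes were not followed. The log2 fold change of the summed Naip genes was -1.32, and no longer passed, without the 4 libraries with high Y-linked counts, and ran from -1.65 to -1.41 when 1 library was left out. Over all genes DESeq2 called 1582, edgeR 1292 and edgeR 526 without WT replicates 1 and 3. In the order by level, 5 steps passed with 10 libraries and 0 within WT or within Zfp36ΔARE libraries, where 5 libraries allow a smallest p of 0.0625.

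The replicate numbers did not pair the libraries: deviations from the group means correlated from -0.183 to 0.085 between libraries of the same number, and 0 of the 5 WT libraries correlated best with their own number. With the replicate block, members called numbered 4 (Naip6 lost, and Casp1 and Casp4 no longer passed the adjusted p), pathway genes 6 and all genes 983, and the summed Naip genes had a log2 fold change of -1.54.

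Depth limits the NAIP genes. Zfp36ΔARE libraries held as few as 108 Naip counts, and Naip1 had too few to test. How the counting treated fragments shared between Naip paralogs is not given in the sources used here.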
